A study of Mus musculus with 6 samples.

Results

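The tumour suppressor p53, encoded in the mouse by Trp53, and 9 genes of its pathway were followed in R1 cells, a long-established line of mouse embryonic stem cells. The 10 genes were Trp53, its inhibitors Mdm2 and Mdm4, and the target genes Ccng1, Trp53inp1, Sesn2, Zmat3, Eda2r, Aen and Phlda3. They were taken by symbol from a table of 51912 genes. Each symbol matched 1 Ensembl identifier, and all 10 had enough counts to be tested. The cells were grown in 2iLIF, the medium with LIF and inhibitors of MEK and GSK3 that holds naive pluripotency. They were then moved to serum-free N2B27 that held FGF2 at 100 ng/ml, and 3 replicates each were taken for sequencing of messenger RNA at 24 h and at 48 h. Both groups therefore carry the same change of medium and the same dose, and by their labels they differ only in time. Whether the times were prepared and sequenced together is not in the labels. Libraries from the starting medium, or from N2B27 without FGF2, were not analysed here, so FGF2, the change of medium and time in culture cannot be told apart. Whether the replicates came from separate cultures is not in the labels, and p-values measure only the spread between these libraries.

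p53 is a transcription factor that is made all the time and destroyed all the time. Mdm2, a ubiquitin ligase, marks it for degradation, and Mdm4, a relative of Mdm2 without strong ligase activity of its own, covers its activation domain. Because Mdm2 is itself a p53 target, the pair forms a negative feedback loop. When DNA damage or another stress frees p53 from these inhibitors, it binds response elements built from a pair of decamers near its targets and switches on genes for cell cycle arrest, cell death, repair and metabolism. Embryonic stem cells are known for abundant p53. Control of p53 activity acts largely on the protein, which these messenger RNA libraries do not measure.

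The libraries held between 19574969 and 23133148 estimated counts, and 14889 genes were tested. Levels are given in CPM, a gene's count relative to the TMM-scaled total of its library, which is not corrected for transcript length. The quasi-likelihood test of edgeR was used throughout, with p-values adjusted over all 14889 genes and a call made below 0.05. Fold changes compare 48 h with 24 h and are given on the log2 scale. The 6 listed stem cell markers (Pou5f1, Sox2, Nanog, Sall4, Utf1, Lin28a) were all detected and summed to between 2874 and 2937 CPM at 24 h and between 2727 and 2790.2 CPM at 48 h. All 6 changed, 3 in each direction, with the largest changes in Nanog, which fell from 695 ± 24.6 to 174 ± 6.47 CPM, and Lin28a, which rose from 192 ± 7.83 to 563 ± 4.86 CPM (SD, n = 3). Of 7 fibroblast markers, chosen for feeder cells, Postn and Lum were at 0 in every library, and the 7 summed to between 2.54 and 3.35 CPM at 24 h and between 2.53 and 3.83 CPM at 48 h. Among them Dcn was at 0 in all 24 h libraries and at 1.06, 1.14 and 1.44 CPM at 48 h, and Col1a1 fell from 1.03 ± 0.24 to 0.30 ± 0.11 CPM. The 7 primitive endoderm markers summed to between 9.36 and 11.1 CPM at 24 h and between 5.67 and 6.44 CPM at 48 h. Only 3 of these 7 were tested. Gata4 was the only 1 called, falling from 5.84 ± 0.86 to 2.25 ± 0.22 CPM, while Dab2 and Pdgfra had no call. The 4 trophoblast markers summed to at most 1.10 CPM. Mitochondrial transcripts took from 3.08% to 3.19% of counts at 24 h and from 2.76% to 2.94% at 48 h. The part of these shifts in the results below was not tested. In bulk RNA, fewer cells of a type and less RNA per cell cannot be told apart.

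Promoter letters were searched for the p53 consensus decamer, because 7 target genes below moved together. RefSeq's promoter table (build GRCm38.p6, 250 bases before to 50 after each start) held 10 promoters of 8 of the genes. Trp53inp1 and Zmat3 were not matched. The consensus is its own reverse complement, so 1 search covers both strands. An exact match was found in 5 of these 10 promoters, belonging to 4 genes, and in 8.36% of all 32851 promoters of that length. The 5 count 1 Aen decamer at both of its starts. Most of these genes were listed as known p53 targets, so a share above that of all promoters was built in. It does not bear on why the 7 moved. Of the 7, Ccng1, Mdm2 and Aen held a decamer in this window, and Eda2r and Sesn2 held none. Capitals mark the decamer in each sequence, written 5′ to 3′ on the gene's own strand. The stretches for Ccng1, Mdm2 and Trp53 are the upstream bases around it that no annotated exon covers. Both Aen starts share the 1 decamer shown with 10 bases on each side.
Ccng1, GRCm38.p6 chr11:40755312-40755536, minus strand: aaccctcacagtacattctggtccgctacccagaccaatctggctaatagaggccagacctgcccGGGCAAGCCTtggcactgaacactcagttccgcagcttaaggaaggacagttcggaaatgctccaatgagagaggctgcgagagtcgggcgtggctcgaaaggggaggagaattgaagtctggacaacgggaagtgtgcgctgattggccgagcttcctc
Mdm2, GRCm38.p6 chr10:117710759-117711008, minus strand: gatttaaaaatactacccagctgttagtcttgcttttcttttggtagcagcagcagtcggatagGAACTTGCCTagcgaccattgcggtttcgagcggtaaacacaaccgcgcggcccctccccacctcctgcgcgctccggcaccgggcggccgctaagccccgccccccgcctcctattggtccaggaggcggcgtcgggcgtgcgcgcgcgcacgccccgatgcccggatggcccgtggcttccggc
Trp53, GRCm38.p6 chr11:69580256-69580358, plus strand: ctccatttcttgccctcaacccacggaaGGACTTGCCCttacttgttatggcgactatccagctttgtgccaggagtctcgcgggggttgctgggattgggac
Aen, GRCm38.p6 chr7:78895927-78895956, plus strand: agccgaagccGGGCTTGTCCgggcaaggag

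Counted from the start site, the first base of the decamer lay at -185 in Ccng1, -186 in Mdm2 and -75 in Trp53. In Aen it lay at -121 from one start and at 11 from the other. In Ccng1 the decamer is the second of 2 adjacent units, and the 20 bases of both together differ from the full consensus at 1 position. A full site with at most 1 mismatch and no spacer was present in 0.0883% of all promoters. The best such stretch had 3 mismatches in Aen, Trp53 and 1 start of Mdm4, a level reached by 6.29% of promoters, and 5 in Mdm2. Eda2r, Phlda3, Sesn2 and both starts of Mdm4 had no exact decamer in this window, which says nothing about sites elsewhere, such as in introns. The letters CACGTG, an E-box that reads the same on both strands, occurred in 3 of the 10 promoters (Trp53, Eda2r and 1 start of Aen) and in 7.15% of all promoters, and they did not overlap the decamers.

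Of the 10 genes, 9 changed between 24 h and 48 h, against 62.8% of all tested genes. Higher at 48 h were 8 (30.9% of all tested genes) and lower was 1 (31.9%). The same 9 genes had values that did not overlap between the times, which held for 66.9% of tested genes (32.7% higher and 34.2% lower at 48 h). The 10 genes and the lists below were chosen with earlier results of these data known. That choice can itself raise such counts above the shares of all genes. The 7 genes that rose clearly were Eda2r, Trp53inp1, Zmat3, Mdm2, Aen, Ccng1 and Sesn2, by 1.15-fold to 1.29-fold, while Trp53 itself moved by 1.04-fold. Mdm4 fell to 0.883-fold, and Phlda3 did not pass the test. All of these changes were small. None of the 10 reached 0.5 in size on the log2 scale, which 28.1% of tested genes did. The median over the 10 was 0.24 in log2 fold change, beside -0.0063 over all tested genes. Each of the 10 was measured with at least 547 counts in every library, and all but Phlda3 with at least 1875.

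**Figure D1:**
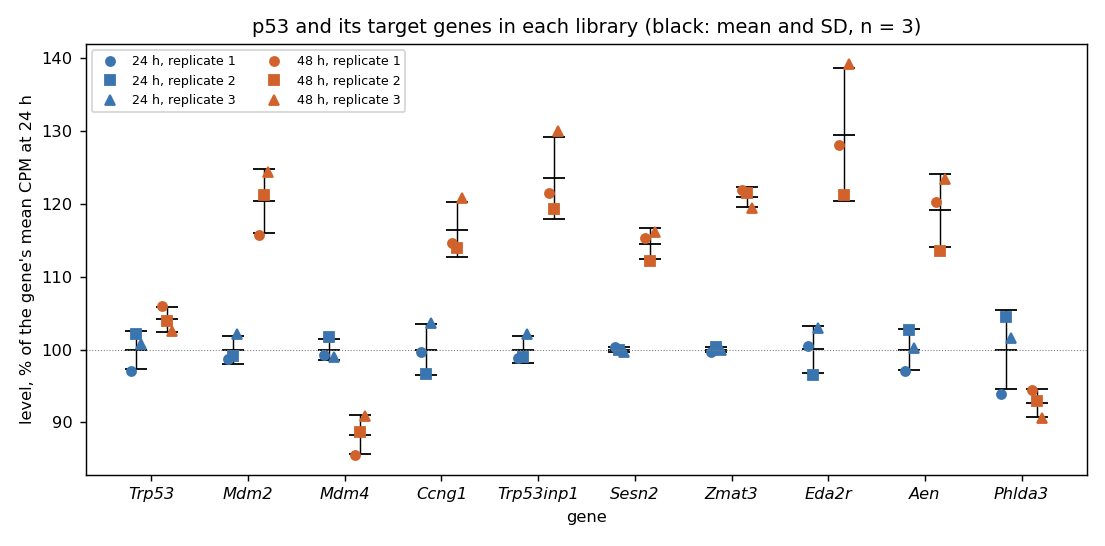
Level of each of the 10 genes in each library (y axis, percent of that gene's mean CPM at 24 h, axis not starting at 0), with blue for 24 h, orange for 48 h, a marker shape per replicate and black bars for mean and SD (n = 3). The 24 h values of all 10 genes lie between 93.9% and 104%, and the 48 h values of the 7 risen targets between 112% and 139%.

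Trp53 (ENSMUSG00000059552, chr11:69580359-69591873, plus strand) stood at 417, 438.5 and 433 CPM in the 24 h libraries and at 455, 447 and 440.6 CPM in the 48 h libraries. The 48 h values all lay above the 24 h values, but the nearest pair was separated by less than the spread within either time. The mean went from 429.5 ± 11.2 to 447.5 ± 7.27 CPM (SD, n = 3), or 0.059 ± 0.021 on the log2 scale (standard error; adjusted p = 0.022). Scaling by library size alone gave -0.0016 on that scale (adjusted p = 0.953), so whether Trp53 RNA rose depends on the scaling. The call was also lost when replicate 1 of 24 h was left out (0.037, adjusted p = 0.152) or replicate 1 of 48 h was (0.049, adjusted p = 0.077). The 95% interval of the change, from 0.014 to 0.10, leaves out a change as large as that of any of the 7 risen targets.

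Wrap53, which lies head to head with Trp53 and whose exon reaches into the upstream bases of Trp53, was at 22 ± 0.71 CPM at 24 h and 21.3 ± 0.43 CPM at 48 h (adjusted p = 0.489). No exon of another gene overlaps those of Trp53 in GENCODE M21, and the Trp53 counts were whole numbers in every library. Of the relatives of Trp53, Trp73 rose from 16.9 ± 0.66 to 28.7 ± 1.79 CPM (SD, n = 3), which is 0.76 ± 0.06 on the log2 scale (standard error; adjusted p = 1.56e-08), and Trp63 had between 2 and 10 counts in a library and was not tested.

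Mdm2 (ENSMUSG00000020184, chr10:117688875-117710758, minus strand), the ubiquitin ligase of the feedback loop, stood at 132, 133 and 137 CPM at 24 h and at 155, 163 and 167 CPM at 48 h. Every 48 h library lay above every 24 h library. Its log2 fold change was 0.27 ± 0.03 (standard error; adjusted p = 5.36e-07), from 134 ± 2.59 to 162 ± 5.87 CPM (SD, n = 3).

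Mdm4 (ENSMUSG00000054387, chr1:132959484-133030561, minus strand), the other inhibitor, went the opposite way. It stood at 237, 243 and 237 CPM at 24 h and at 204, 212 and 217 CPM at 48 h, and the groups did not overlap. The log2 fold change was -0.18 ± 0.02 (standard error; adjusted p = 7.28e-06). Its counts were fractional in 4 libraries, by at most 0.22 from a whole number, so some of its reads were divided with another gene or row. How many was not measured here.

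The ratio of Mdm2 to Mdm4 counts needs no scaling between libraries. It was 0.558, 0.547 and 0.58 at 24 h and 0.76, 0.768 and 0.769 at 48 h. The groups were far apart compared with their spread, with a difference of 0.45 in log2 ratio. By a two-sided exact permutation test p was 0.1, which is the lowest that 3 libraries against 3 allow, and it stayed at 0.1 after adjustment over the 12 ratios computed. The ratio itself compares counts of transcripts of unequal length, so only its change can be read.

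**Figure D2:**
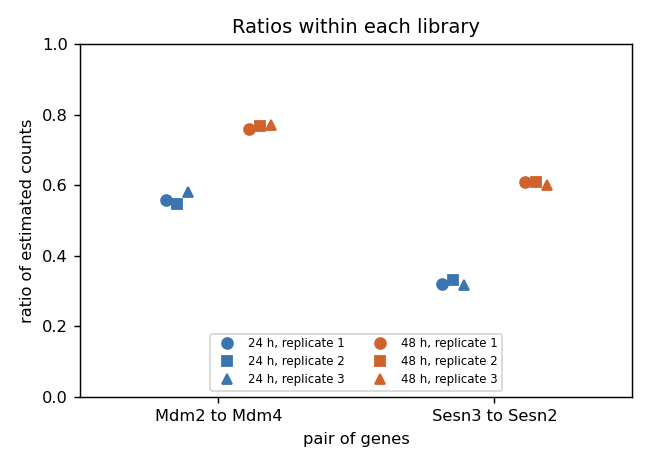
Ratio of estimated counts of 2 genes within each library (y axis), with blue for 24 h, orange for 48 h and a marker shape per replicate. Mdm2 to Mdm4 moved from a mean of 0.562 to 0.766, and Sesn3 to Sesn2 from 0.323 to 0.607.

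Ccng1 (ENSMUSG00000020326, chr11:40748552-40755311, minus strand) encodes cyclin G1, a p53 target that acts on Mdm2 through a phosphatase. It stood at 406, 394 and 422 CPM at 24 h and at 467, 464.5 and 492 CPM at 48 h, all 48 h values above all 24 h values. The log2 fold change was 0.22 ± 0.03 (standard error; adjusted p = 1.45e-06). Its relative Ccng2 fell from 13.6 ± 1.34 to 10.1 ± 0.75 CPM (SD, n = 3), which is -0.42 on the log2 scale (adjusted p = 0.000716).

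Trp53inp1 (ENSMUSG00000028211, chr4:11156431-11174379, plus strand) encodes a nuclear stress protein that takes part in p53-dependent death and in autophagy. It stood at 398, 399 and 412 CPM at 24 h and at 490.1, 481 and 524 CPM at 48 h. The groups were separate, with replicate 3 highest at both times. The log2 fold change was 0.31 ± 0.03 (standard error; adjusted p = 3.4e-08). Trp53inp2, an autophagy protein of the same family, was at 29.4 ± 0.89 and 30.1 ± 1.003 CPM (SD, n = 3; adjusted p = 0.565), with a 95% interval of its log2 fold change from -0.07 to 0.14.

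Sesn2 (ENSMUSG00000028893, chr4:132492032-132510501, minus strand) encodes a sestrin, a leucine sensor that restrains mTORC1 and a target of both p53 and ATF4. It stood at 164, 163 and 163 CPM at 24 h and at 188, 183 and 189 CPM at 48 h, with a CV of only 0.34% at 24 h. The groups did not overlap, and the log2 fold change was 0.20 ± 0.02 (standard error; adjusted p = 1.41e-06).

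The other sestrins moved further and in opposite directions. Sesn1, also a p53 target, fell from 22.6 ± 1.03 to 16.8 ± 1.35 CPM (SD, n = 3), which is -0.43 ± 0.07 on the log2 scale (standard error; adjusted p = 5e-05). Sesn3, best known as a FOXO target, rose from 52.7 ± 1.09 to 113 ± 1.71 CPM, which is 1.11 ± 0.03 on the log2 scale (adjusted p = 1.71e-14). The Sesn3 to Sesn2 count ratio was 0.321, 0.33 and 0.318 at 24 h and 0.61, 0.609 and 0.602 at 48 h, again with an exact two-sided permutation p of 0.1.

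Of 8 listed genes of the ATF4 stress response, 4 fell and the other 4 had no call, beside the rise of Sesn2. Called were 50%, against 62.8% of all tested genes, and lower 50%, against 31.9%. Atf4 itself stood at 403.5 ± 7.07 and 406 ± 5.86 CPM (SD, n = 3; adjusted p = 0.745), a change of 0.0078 on the log2 scale that turned negative when scaled by library size alone (-0.053, adjusted p = 0.0281). Asns, the asparagine synthetase gene, fell from 734 ± 5.84 to 487 ± 3.03 CPM (-0.59 on the log2 scale, adjusted p = 9.88e-15), and Trib3 fell by 0.25 on that scale. The part of this pathway in the level of Sesn2 was not tested.

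Zmat3 (ENSMUSG00000027663, chr3:32334792-32366014, minus strand) encodes a zinc finger protein that binds RNA. It was the steadiest of the genes, at 184, 186 and 185 CPM at 24 h and at 226, 225 and 221 CPM at 48 h. The gap between the times was many times the spread within them, and the log2 fold change was 0.27 ± 0.02 (standard error; adjusted p = 7.65e-09).

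Eda2r (ENSMUSG00000034457, chrX:97333840-97377216, minus strand) encodes a receptor of the TNF receptor family for the A2 form of ectodysplasin. It stood at 95.2, 91.6 and 97.6 CPM at 24 h and at 121, 115 and 132 CPM at 48 h. This was the largest rise of the 10, at 0.37 ± 0.04 on the log2 scale (standard error; adjusted p = 8.96e-07), and the widest spread at 48 h, with a CV of 7.07%. Its ligand gene Eda was near the floor, at 3.34 ± 0.40 and 2.55 ± 0.59 CPM (SD, n = 3; -0.38 on the log2 scale, adjusted p = 0.0716). Eda was called lower when scaled by library size alone (-0.44, adjusted p = 0.0386) and when replicate 3 of 48 h was left out (-0.58, adjusted p = 0.0141). Edar, the receptor for the A1 form, had at most 5 counts in a library.

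Aen (ENSMUSG00000030609, chr7:78895854-78911209, plus strand) encodes a nuclease that helps to degrade DNA in p53-dependent cell death. It stood at 147, 156 and 152 CPM at 24 h and at 182, 172 and 187 CPM at 48 h. The groups were separate, and the log2 fold change was 0.25 ± 0.03 (standard error; adjusted p = 2.23e-06).

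Phlda3 (ENSMUSG00000041801, chr1:135766119-135769136, plus strand) encodes a membrane-lipid binding protein that competes with the kinase AKT. It was the target that did not pass the test, at 27.4, 30.5 and 29.6 CPM at 24 h and at 27.5, 27.1 and 26.4 CPM at 48 h. The groups overlapped through replicate 1 of each time. The log2 fold change was -0.11 ± 0.05 (standard error; adjusted p = 0.0738). Its 95% interval, from -0.22 to -0.00082, reaches no increase, so a rise like that of the other targets was outside what these libraries allow. Leaving out replicate 1 of 24 h gave a call (-0.15, adjusted p = 0.0238), as did scaling by library size alone (-0.17, adjusted p = 0.00911).

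**Figure D3:**
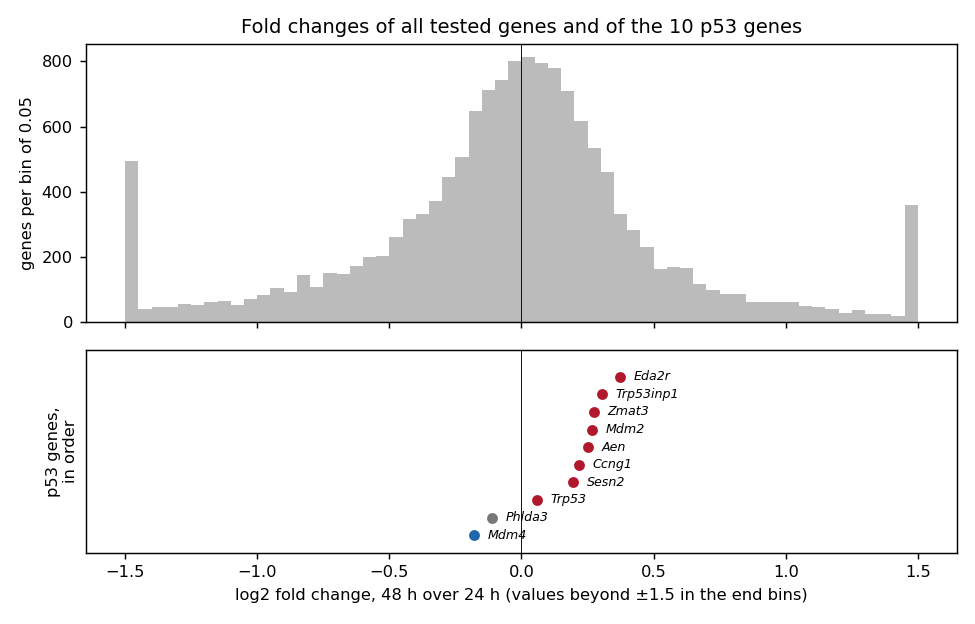
Upper panel, number of tested genes (y axis) by log2 fold change of 48 h over 24 h (x axis, bins of 0.05, values beyond 1.5 in the end bins). Lower panel, the 10 genes on the same x axis in order of their fold change, red for higher, blue for lower and grey for no call. All 10 lie between -0.18 and 0.37, inside the central bulk of the 14889 genes.

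Among themselves, the 7 risen targets spanned log2 fold changes from 0.20 to 0.37. Set against Trp53 counts in the same library, each of the 7 had a higher ratio in every 48 h library than in any 24 h library. This held for 25.8% of all other tested genes. The 7 were picked as higher at 48 h in these same counts, and Trp53 itself moved little. Their higher ratios largely follow from that choice and are not separate evidence. The ratios of Mdm4 and of Phlda3 to Trp53 were lower in every 48 h library, as for 38.8% of genes. Eda2r moved most against Trp53, by 0.31 in log2 ratio, and Sesn2 least among the 7, by 0.14. Each of these exact permutation tests gave p = 0.1, the smallest value possible.

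Replicate 3 held the highest 48 h value for 7 of the 10 genes and for 33.9% of all tested genes. It did so for 6 of the 7 risen targets. Without this library all 7 were still called, with log2 fold changes from 0.19 for Sesn2 and Ccng1 to 0.32 for Eda2r. At 24 h replicate 1 held the lowest value for 6 of the 10. The share of all tested genes with their lowest value there was not computed, so nothing is read from this count.

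**Figure D4:**
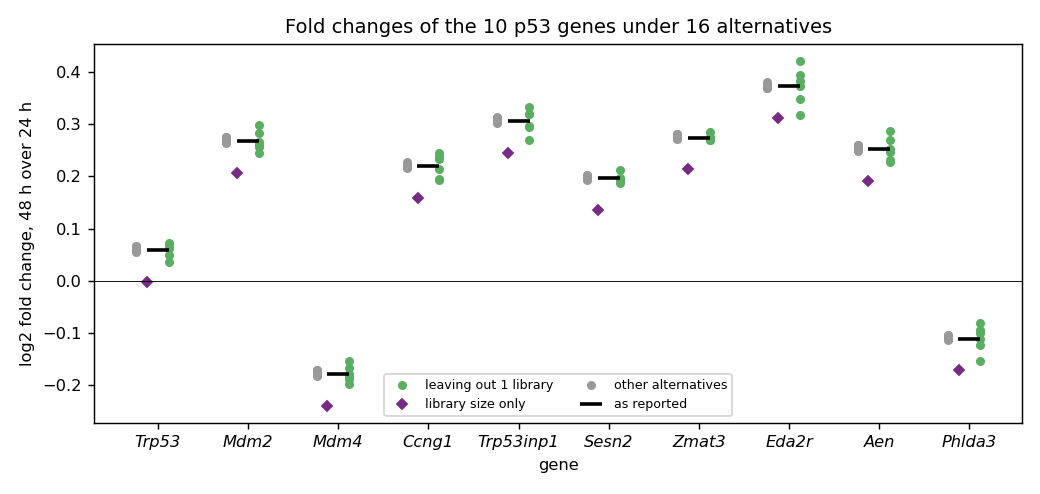
Log2 fold change of 48 h over 24 h (y axis) of each gene as reported (black bar), with library size as the only scaling (purple), in the 6 fits that each left out 1 library (green) and in the other 9 alternatives (grey). The 7 risen targets lie above 0 in all of them and Mdm4 below 0, while Trp53 reaches 0 with library size as the only scaling.

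Levels were compared between genes per transcript length, in TPM, a count divided by transcript length and scaled to the sum of all such values, with the median transcript length of GENCODE M21. At 24 h Trp53 led with 482 ± 12.2 TPM (SD, n = 3), followed by Ccng1 with 234 ± 8.11 TPM and Trp53inp1 with 150.4 ± 2.74 TPM. Aen, Mdm4, Sesn2 and Mdm2 followed with 137, 118, 94.7 and 86.7 TPM, and Eda2r, Zmat3 and Phlda3 came last with 61.8, 48.2 and 41 TPM. The libraries of neighbours in this order did not overlap at 24 h. At 48 h Sesn2, Mdm2 and Mdm4, at 106, 102 and 102 TPM, lay close together, and Mdm2 overlapped both of the others. The order depends on the length used, and with the union of all annotated exons Ccng1 (363 TPM) stood above Trp53 (332 TPM) at 24 h. By that length Mdm4 (50.5 TPM) stood below Mdm2 (82.5 TPM) at 24 h. Eda2r (50.3 TPM) then came last in place of Phlda3 (58.4 TPM).

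Over the 6 libraries, the tested genes whose log2 CPM followed Trp53 most closely were Tamm41, Adrm1 and Asb6, with Pearson's r of 0.989, 0.989 and 0.988. These 6 points share library and depth and fall into 2 times, and 161 of the 10427 genes whose mean reached 5 CPM had r above 0.9.

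Beyond the 10 genes, 35 other well-known p53 targets were listed by role. Of these, 34 were tested and 28 changed (82.4%, beside 62.8% of all tested genes), 14 higher and 14 lower (41.2% each, beside 30.9% and 31.9% of all tested genes). The median log2 fold change was -0.02, beside 0.24 over the 10 genes above, so the wider list as a whole did not move upward. Fas had between 1 and 8 counts in a library and was not tested.

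Among 9 cell cycle genes, 6 rose (66.7%, beside 30.9% of all tested genes) and 1 fell (11.1%, beside 31.9%). Cdkn1a, the classic p53 target that encodes the CDK inhibitor p21, stood at 61.9, 61.9 and 63.3 CPM at 24 h and at 62.8, 61.7 and 63.2 CPM at 48 h. The groups overlapped over nearly their whole ranges, and the 95% interval of the log2 fold change, from -0.07 to 0.07, lies below the change of each of the 7 risen targets (adjusted p = 0.916). The fitted change of 0.0045 turned negative when scaled by library size alone (-0.056, adjusted p = 0.151).

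Plk3, a stress kinase gene, rose from 15.8 ± 0.43 to 37.6 ± 0.91 CPM (SD, n = 3), which is 1.25 on the log2 scale (adjusted p = 2.23e-12). Gadd45a, a DNA damage gene, rose by 1.04 on that scale. Sfn, which encodes 14-3-3 sigma and is also an epithelial gene, fell from 9.1 ± 0.66 to 2.14 ± 0.02 CPM (-2.08 on the log2 scale, adjusted p = 1.63e-10). Exons of Gadd45a overlap those of E230016M11Rik on the opposite strand over 19.1% of their length, and whether the counting used strand is not given in the sources used here.

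Of 11 cell death genes 10 were tested, of which 5 rose (50%, beside 30.9% of all tested genes), 3 fell (30%, beside 31.9%) and 2 had no call. Pmaip1, which encodes the BH3-only protein NOXA, rose from 8.8 ± 1.14 to 37.5 ± 1.72 CPM (SD, n = 3), which is 2.09 ± 0.08 on the log2 scale (standard error; adjusted p = 3.95e-13), the largest rise of the list. Bbc3, the gene of PUMA, and Bax rose by 0.41 and 0.16 on that scale, and Tnfrsf10b, a TRAIL receptor gene, by 0.30. Bax and Tnfrsf10b had fractional counts in all 6 libraries. Ei24, an endoplasmic reticulum gene, fell by 0.48 on that scale.

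Of the 15 repair and metabolism genes, 3 rose (20%, beside 30.9% of all tested genes), 10 fell (66.7%, beside 31.9%) and 2 had no call. Tigar, which lowers glycolytic flux, fell from 113.5 ± 4.48 to 63.8 ± 1.92 CPM (SD, n = 3), which is -0.83 on the log2 scale (adjusted p = 3.38e-12). Pltp, a phospholipid transfer protein gene, fell by 0.85 and Ddb2, a nucleotide excision repair gene, fell by 0.42 on that scale. Exons of Pltp and of Ddb2 overlap those of Ctsa and of Acp2 on the opposite strand over 19.3% and 23.8% of their length. Ddit4, an mTORC1 inhibitor gene, rose by 0.78.

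**Figure D5:**
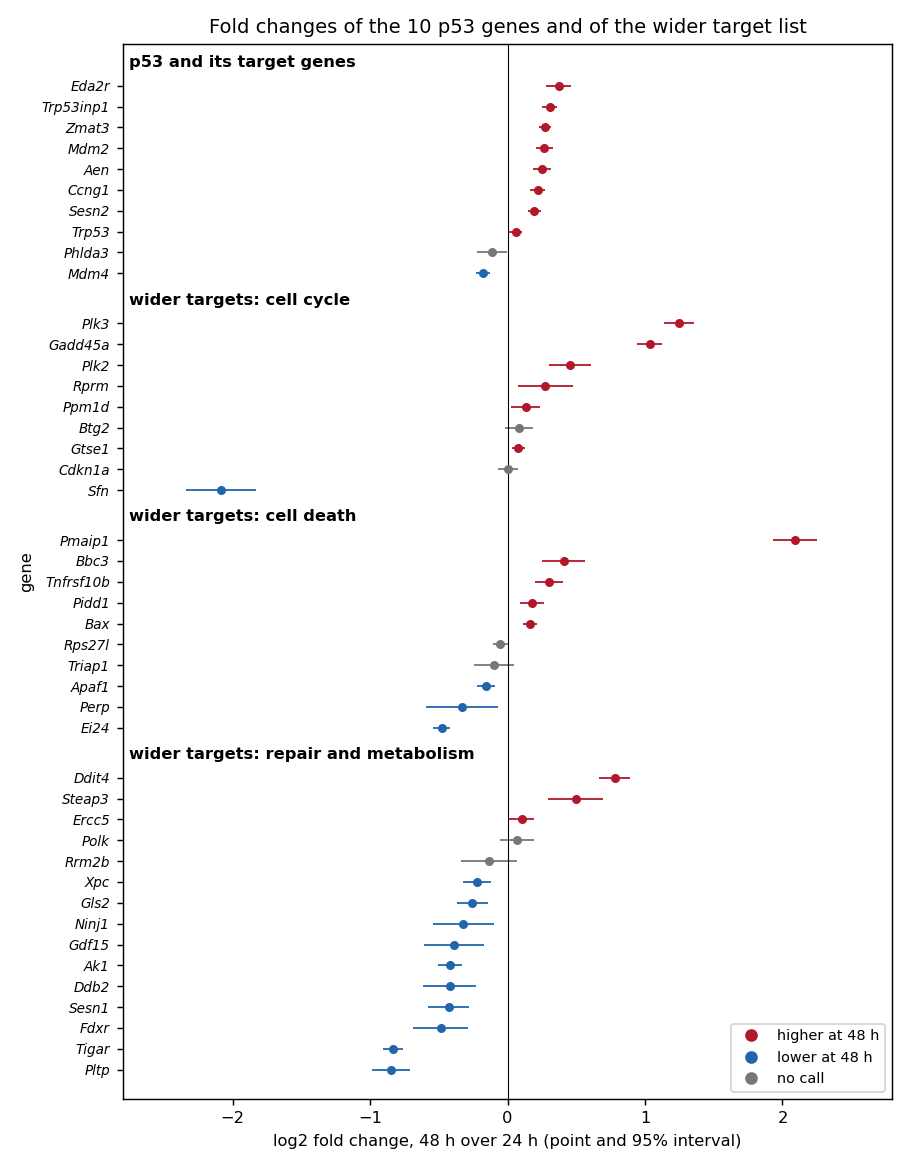
Log2 fold change of 48 h over 24 h (x axis) with its 95% interval for the 10 genes and the 34 tested genes of the wider list by role (y axis), red for higher, blue for lower and grey for no call. The 10 genes lie between -0.18 and 0.37, whereas the wider list runs from -2.08 for Sfn to 2.09 for Pmaip1.

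Of 25 listed regulators of p53, 18 changed (72%, beside 62.8% of all tested genes), 15 higher and 3 lower (60% and 12%, beside 30.9% and 31.9%), with a median log2 fold change of 0.12. Scaled by library size alone, 10 regulators were called higher and 4 lower. The median size of their changes was 0.14, beside 0.24 over the 10 genes and 0.27 over all tested genes. All 7 kinases changed (beside 62.8% of all tested genes), 6 upward (85.7%, beside 30.9%) and 1 downward (14.3%, beside 31.9%). Hipk2 (0.47) and Atr (0.24) led them, while Chek2 fell by 0.22. The call of Prkdc was weak (0.081, adjusted p = 0.0456), its groups overlapped, and its call was not checked under the alternatives. Of 4 acetylation genes 3 rose (75%) and 1 had no call. Of 6 genes that act through ubiquitin, 3 rose (50%) and 1 fell (16.7%). The ubiquitin ligase genes Trim24, Cop1 and Huwe1 rose by 0.39, 0.25 and 0.24. The ligase gene Rchy1 had no call (0.052, adjusted p = 0.336, and -0.0084 when scaled by library size alone), and neither had Usp10 (adjusted p = 0.992). Counts were fractional in all 6 libraries for Cop1 and Usp10 and in 5 for Rchy1. Exons of Rchy1 overlap those of Thap6 on the opposite strand over 18% of their length. Usp7, which removes ubiquitin from p53 and Mdm2, fell by 0.052, a call lost when replicate 1 of 48 h (-0.042, adjusted p = 0.064) or replicate 2 of 48 h (-0.046, adjusted p = 0.054) was left out.

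Trp53bp1, the gene of the DNA repair scaffold 53BP1, stood apart from the other regulators. It was at 71.8, 68.7 and 66.2 CPM at 24 h and at 226, 239 and 235 CPM at 48 h, more than tripling with no overlap (log2 fold change 1.76 ± 0.03, standard error; adjusted p = 6.7e-17). Its exons overlap those of Tubgcp4 on the opposite strand over 15% of their length. Cdkn2a, whose ARF product holds Mdm2 away from p53, was at 20.5 ± 0.20 and 19.5 ± 1.05 CPM (SD, n = 3; adjusted p = 0.328). The ribosomal protein genes Rpl5 and Rpl11, whose products bind Mdm2 under ribosomal stress, did not pass the test (log2 fold changes of 0.035 and 0.0083, both below 0 when scaled by library size alone), and their counts were fractional in all 6 libraries.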

How the data were processed

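Messenger RNA of 6 R1 embryonic stem cell libraries (FGF2 for 24 h and 48 h, 3 each; the groups come from the sample titles) was analysed. The values are estimated counts, made with RSEM for each gene and deposited by the authors. Per the submitters' processing notes, cutadapt 1.9.1, STAR 2.5.2, RSEM 1.3.0 and build GRCm38 were used; annotation, strand setting and filters are not given in the sources used here. All columns matched a sample title. The authors' expected counts were rounded, filtered with filterByExpr (minimum count 10) and scaled by TMM, and 48 h was compared with 24 h by glmQLFTest (edgeR 4.0.16, R 4.3.3), with Benjamini-Hochberg adjustment over 14889 genes. A standard error is the fold change divided by the square root of F. On counts simulated for 14889 genes in this comparison, the test called 20 of 50 genes changed by 0.25 on the log2 scale. It called 37 of 50 changed by 0.5 and 46 of 50 changed by 1, with 10 unchanged genes called. The simulation changed far fewer genes than the 62.8% called in the data, which makes its Benjamini-Hochberg cutoff stricter. These shares therefore do not give the recovery in the real comparison. Symbols, positions and lengths came from GENCODE M21 (GRCm38), which matched 51633 of 51912 identifiers. TPM values were computed from the deposited counts. Depth was 19574969 to 23133148 counts per library; the number of libraries limits precision.

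The 10 genes and all lists were chosen with earlier results of these data known. Named are the 10 genes, genes of the listed pathway groups and the 3 genes most correlated with Trp53. The rule was to name the largest changes of each group first, but it was not followed throughout. Some genes of known role were named, and in the ATF4 group genes with larger changes than Trib3 were not. No test was made over a list. Alternatives were RLE, upper quartile and library size scaling, 2 other filters, DESeq2 1.42.0, limma voom 3.58.1, unrounded counts, a threshold of 0.01, the replicate number as a block and leaving out each library. The length used for TPM was varied after the data were seen.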

Additional observations from a re-analysis of the deposited data

How the results depend on the processing

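Across 16 alternatives for each of the 10 genes, 154 of the 160 single-gene values kept direction and call. The 7 risen targets and Mdm4 did so in all 16. Scaling by library size alone took the median over all tested genes from -0.0063 to -0.067 on the log2 scale, took Trp53 to -0.0016 and gave 2 genes called lower in place of 1, since Phlda3 gained a call. Leaving out 1 library gave from 1 to 2 genes called lower. Trp53 also lost its call at the threshold of 0.01 and without replicate 1 of either time, and so in 4 settings in all. Over all alternatives its adjusted p ran from 0.0121 to 0.953 and that of Phlda3 from 0.00911 to 0.262. The other counts of called genes stayed within 1.5 times of those reported. For 39 other genes named above, 605 values were unaltered in both respects, 3 fell out of call (all of Usp7), 2 came into it (both of Eda) and 12 reversed. These 39 leave out some genes named above, such as Prkdc, Gata4 and Ppp1r13b, whose calls were not checked in this way. Dcn and Col1a1 gave no value where 10 counts were required in every library. All 12 reversals were of genes without a call in the values reported. Scaled by library size alone, Cdkn1a was at -0.056, Atf4 at -0.053 (adjusted p = 0.0281, a call), Rpl11 at -0.052, Trp53inp2 at -0.027, Rpl5 at -0.025 and Rchy1 at -0.0084. Leaving out 1 library gave from -0.0028 to 0.017 for Cdkn1a, with 3 values below 0, from -0.0071 to 0.021 for Atf4, with 1 below 0, and from -0.020 to 0.044 for Rpl11, with 2 below 0. What lies behind these shifts was not tested.

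With the replicate block, 9235 genes were called, 9 of them among the 10 genes (8 higher and 1 lower), as without it, 27 in the wider target list and 18 among the regulators. Deviations of same-numbered libraries from their group means correlated at -0.046, -0.043 and -0.0085. Whether libraries with the same number share an origin was not tested.

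Depth limits the low genes: Fas, Trp63 and Edar had at most 10 counts in a library.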
